A study of Mus musculus with 15 samples.

Results

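The genes described here encode the respiratory chain and ATP synthase subunits that are made from nuclear DNA, grouped by the complex their product belongs to. Members were chosen by symbol alone: Nduf for complex I, Sdh followed by a, b, c or d for complex II, Uqcr for complex III, Cox4 to Cox8 for complex IV and Atp5 for complex V. Of the 23420 genes in the deposited expression table, 94 carried such a symbol, and 90 of these were above 0 in at least 3 of the 15 libraries. The 90 were 38 subunits of complex I, 4 of complex II, 8 of complex III, 14 of complex IV and 15 of complex V, and 11 genes with the same prefixes whose products are assembly factors or no subunit (Ndufaf1 to Ndufaf7, Sdhaf1, Sdhaf2, Atp5s and Atp5sl). The 4 members that did not reach 3 libraries were Cox4i2, Cox6a2, Cox8b and Cox8c. Complex I here follows the symbol, so it holds Ndufa4 and Ndufa4l2, and the complex III subunit Cyc1 is given with the electron carriers below.

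RNA was measured in 100 sorted cells per library, with 3 libraries in each of 5 groups, all from draining lymph nodes on day 12 after transfer of donor B cells to C57BL6 mice and immunization with NP-CGG/CFA. GC-PB were plasmablasts (CD45.1+ CD138hi CD44hi tdTomato+) from donors with B1-8hi (KI/+), the transgene S1pr2-ERT2cre (Tg) and the reporter ROSA-Ai14 (KI/+), and their hosts received tamoxifen on days 6, 7 and 8, so a cell is marked through Cre under S1pr2, a receptor gene of germinal centre B cells. The other 4 groups were CD38lo GL7hi germinal centre B cells (B220+ CD45.1+) from B1-8hi (KI/+) Bcl6-YFP (KI/+) donors, with no tamoxifen. Fraction 1 (CD69hi Bcl6lo), Fraction 2 (CD69hi Bcl6hi) and Fraction 3 (CD69lo Bcl6hi) were light zone cells, sorted as CXCR4lo CD86hi, and DZ, the dark zone cells, were CXCR4hi CD86lo. The B1-8hi receptor, which binds the hapten NP, was shared by all groups. The labels call the replicates independent library preparations and name no animals, so p-values measure the spread between libraries, which may be technical.

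The respiratory chain moves electrons from NADH through complex I, and from succinate through complex II, to coenzyme Q, then through complex III and cytochrome c to oxygen at complex IV. Complexes I, III and IV pump protons across the inner mitochondrial membrane, and complex V lets them back to make ATP. Each complex other than II also holds subunits made from mitochondrial DNA, which were not analysed here. Germinal centre B cells divide rapidly and are selected in the light zone, and plasmablasts secrete antibody, a process that uses much ATP.

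The promoter stretches printed here are the regulatory sequence in front of the members on which the results turn: Ndufa1 and Ndufa3, which were highest in GC-PB, Ndufaf4, which was highest in Fraction 1, Atp5b, which was lowest in GC-PB, and Atp5g1 and Cox7a2l, whose levels stepped in opposite directions through the groups. Each is the 120 bases that lie 158 to 39 bases before the start of the gene in RefSeq (build GRCm38.p6), read 5′ to 3′ on the gene's strand. Capitals mark letters of any of 6 motifs searched on both strands: GCGCNTGCG for NRF1, CCGGAAG for ETS factors such as GABPA, AAGATGGCG for YY1, GGGCGG for SP1, CACGTG for the MYC E-box and TCAAGGTCA for ERR alpha.
Ndufa1, chrX:37191277-37191396, minus strand: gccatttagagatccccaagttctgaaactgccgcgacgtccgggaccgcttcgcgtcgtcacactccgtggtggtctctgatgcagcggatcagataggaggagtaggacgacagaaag
Ndufa3, chr7:3617215-3617334, plus strand: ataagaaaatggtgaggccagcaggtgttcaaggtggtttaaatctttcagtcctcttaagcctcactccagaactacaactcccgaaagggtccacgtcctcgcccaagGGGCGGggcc
Ndufaf4, chr4:24897925-24898044, plus strand: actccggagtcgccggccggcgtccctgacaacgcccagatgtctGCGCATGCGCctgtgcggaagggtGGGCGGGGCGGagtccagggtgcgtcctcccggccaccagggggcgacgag
Atp5b, chr10:128083149-128083268, plus strand: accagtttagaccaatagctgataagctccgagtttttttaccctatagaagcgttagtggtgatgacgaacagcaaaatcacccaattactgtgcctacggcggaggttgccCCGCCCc
Atp5g1, chr11:96075670-96075789, minus strand: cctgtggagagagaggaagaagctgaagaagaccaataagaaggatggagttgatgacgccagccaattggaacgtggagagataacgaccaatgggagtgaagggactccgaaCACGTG
Cox7a2l, chr17:83514372-83514491, minus strand: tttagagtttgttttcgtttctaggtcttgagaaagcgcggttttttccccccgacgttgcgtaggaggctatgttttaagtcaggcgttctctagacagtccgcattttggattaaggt

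In these stretches the Ndufaf4 promoter held NRF1 and SP1 letters in separate runs, the Atp5g1 promoter an E-box, and the Ndufa3 and Atp5b promoters an SP1 match, and no searched letters stood in those of Ndufa1 and Cox7a2l. RefSeq promoters (250 bases before the start and 50 after it) were found for 74 of the 90 members. The NRF1 letters stood in 31.1% of them, against 15.3% of the 8258 tested genes with a promoter and 6.59% of all 27025 promoters. The ETS letters stood in 24.3% of member promoters, 20.2% of tested and 9.12% of all. The YY1 letters stood in 8.11%, 3.62% and 1.49%, those of ERR alpha in 2.7%, 0.315% and 0.407%, the E-box in 6.76%, 10.8% and 7.24%, and the SP1 letters in 45.9%, 65.2% and 35.9%, in the same order. Among members with a promoter, the NRF1 letters stood in 3 of 13 that were higher in GC-PB than in Fraction 1 and in 5 of 11 that were lower. A match of letters is a description and was not tested as a binding site.

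Deposited totals ran from 27942 to 115088 per library, and 9185 to 10132 genes were above 0. The deposited values are per molecule barcode on a scale that differed between libraries, so every library was brought to the same total, 53844.9, the ribosomal RNA precursor Rn45s not being part of it, and a "level" below is a value on that scale. The reading is of 1 tagged end per RNA molecule and was not divided by gene length. The value of 1 molecule was 0.305 to 0.362 in the GC-PB and Fraction 1 libraries and 0.105 to 0.139 in the other 9. Xist was above 0 in the same 6 libraries and at 0 in the other 9, and Ddx3y was at most 0.0567 in the 6 and at least 5.45 in the 9. A comparison of Fraction 1 with Fraction 2 therefore cannot be told apart from a difference of donors or preparation, and GC-PB differ from Fraction 1 also in genotype and tamoxifen. Plasmablast markers (Sdc1, Prdm1, Xbp1, Igj, Irf4, Mzb1) summed to levels of 2750 to 3640 in GC-PB and at most 105 elsewhere, and Bcl6 was at 0 in GC-PB. Summed T cell markers stayed at 8.21 or less with Cd3e and Cd4 at 0 in all groups, and summed myeloid markers at 0.894 or less.

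The 90 members together held 2.05 to 2.80% of every library. The share was 2.59 ± 0.267% in GC-PB, 2.35 ± 0.0186% in Fraction 1, 2.31 ± 0.0652% in Fraction 2, 2.11 ± 0.0802% in Fraction 3 and 2.34 ± 0.0335% in DZ (SD, n = 3 each). GC-PB library 1 (2.29%) stood below GC-PB libraries 2 and 3 (2.80% and 2.68%) and within the range of the germinal centre groups. Fraction 3 was the lowest, and its 3 libraries lay below all libraries of DZ and of Fraction 2. These shares rest on 3792 to 8512 molecules of the members per library. In bulk samples, fewer cells that express a gene and less RNA per cell cannot be told apart.

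The complexes did not move together (plot of complex shares). Complex I subunits held 0.831, 0.993 and 0.944% of the 3 GC-PB libraries, against 0.686, 0.683 and 0.679% of the Fraction 1 libraries, 1.35 times as much with no overlap. At equal totals the rise lay in the accessory subunits, which surround the catalytic core: 0.834 ± 0.0821% in GC-PB and 0.599 ± 0.0107% in Fraction 1. The 7 core subunits made in the nucleus, which carry the flavin and the iron-sulfur clusters, held 0.0885 ± 0.0082% in GC-PB and 0.0832 ± 0.0074% in Fraction 1, and overlapped. Ndufa1 alone made up 0.1002% of the GC-PB libraries; without it, complex I subunits still held 0.822 ± 0.0856% in GC-PB and 0.658 ± 0.00324% in Fraction 1. Complexes II, III, IV and V overlapped between GC-PB and Fraction 1, at 0.985, 1.04, 1.08 and 0.954 times the Fraction 1 share. These ratios depend on the scale. On a scale set by the median ratio of genes they were 1.21, 1.28, 1.32 and 1.17. On that scale the accessory subunits of complex I stood at 1.7 times and the core subunits at 1.31 times Fraction 1. The summed share of complex I assembly factors went the other way, with 0.0172 ± 0.0032% in GC-PB and 0.032 ± 0.0011% in Fraction 1. The largest fall among them was that of Ndufaf4, from a mean level of 7.39 in Fraction 1 to 2.24 in GC-PB. Of the 7 changes 5 were negative and 2 positive, and a sum without Ndufaf4 was not made.

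**Figure D1:**
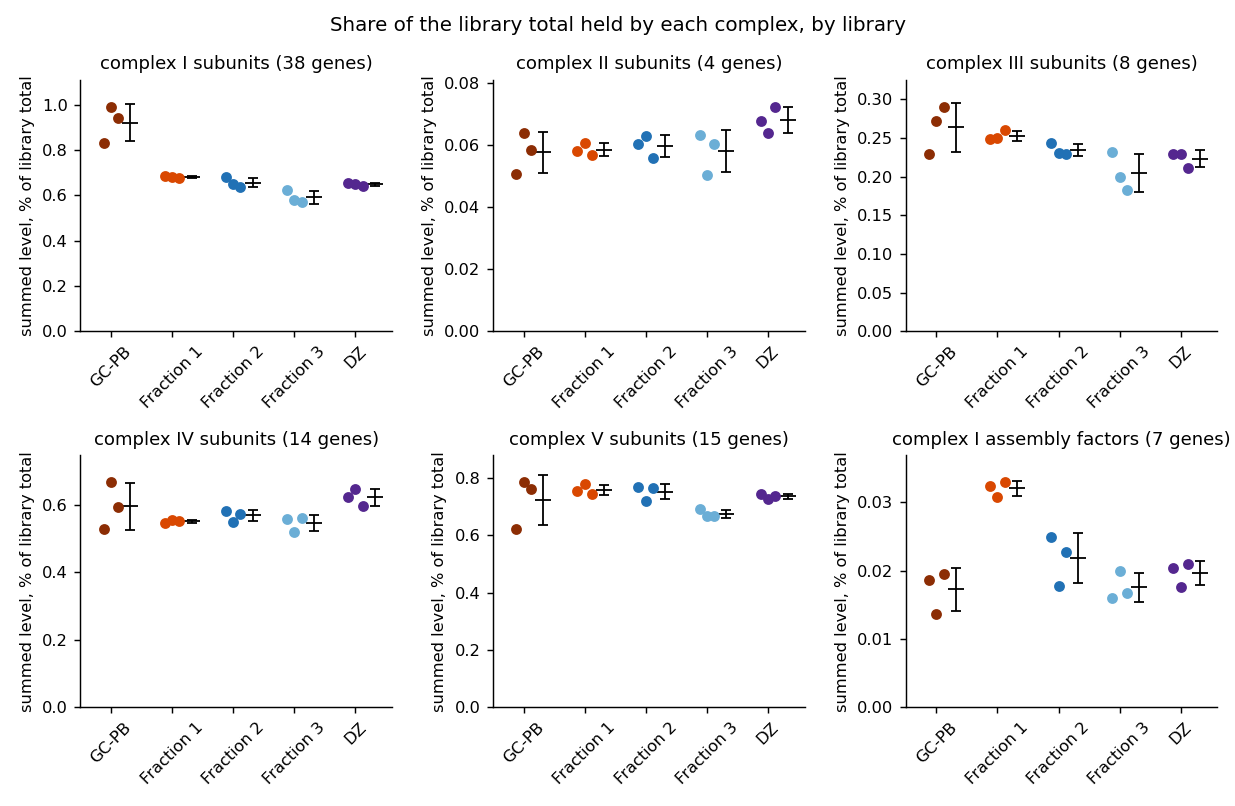
Summed level of the members of each complex as a percent of the library total (Rn45s left out), for each of 3 libraries per group; bars show mean and SD, and each panel has its own axis from 0. Complex I subunits stand at 0.831 to 0.993% in GC-PB and at 0.686% or less in every other library. The sum of complex I assembly factors is highest in Fraction 1, where 1 of them, Ndufaf4, has its highest mean level (7.39).

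GC-PB against Fraction 1 was the comparison with many called members: 17 rose and 17 fell in GC-PB (limma, adjusted p under 0.05 over 11190 genes), with the other 56 not called. Of all tested genes 14% were called higher and 22.7% lower, against 18.9% of the members in each direction. The median change of the members was 0.03 on the log2 scale, and that of all tested genes -0.08. On a scale set by the median ratio of genes, where that all-gene median is 0, 35 members were called higher and 9 lower (all genes 18.6% and 17.5%). On the deposited scale 3 were called higher and 59 lower (all genes 11.2% and 45.8%). The 3 were Ndufa1, Ndufa3 and Ndufa4l2, the last with at most 1 molecule in any library. Igj, the antibody J chain gene, alone took 3.54 to 4.84% of the GC-PB libraries and at most 0.102% of any other library. The number of lower calls fell to 9 without Fraction 1 replicate 3, 10 without GC-PB replicate 1 and 11 without GC-PB replicate 3.

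**Figure D2:**
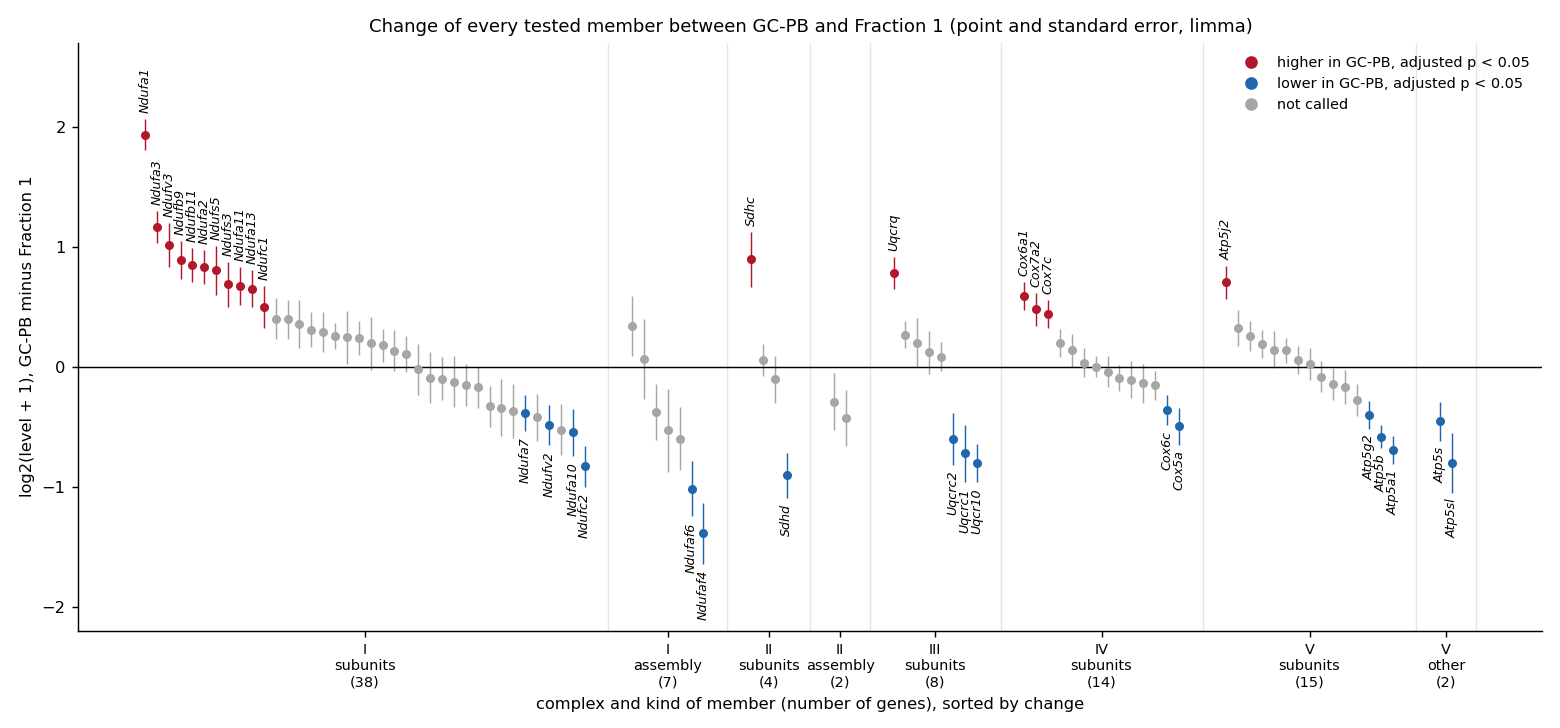
Difference of log2(level + 1), GC-PB minus Fraction 1, with its standard error from limma (n = 3 libraries per group), for all 90 tested members, sorted within each complex; red and blue points are called higher and lower in GC-PB. At equal totals 11 of 38 complex I subunits are red and 4 blue, and its assembly factors hold the lowest point, Ndufaf4 at -1.39.

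Complex I subunits gave 11 of the 17 higher calls. Of these subunits 28.9% were called higher and 10.5% lower, against 14% and 22.7% of all tested genes. Of the 31 accessory subunits of complex I 10 rose and 3 fell, and of the 7 core subunits 1 rose and 1 fell. Of its 7 assembly factors none rose and 2 fell. These counts depend on the scale: complex I subunits had 19 of 38 higher and 1 lower by median ratio (median 0.43), but 3 higher and 19 lower on the deposited scale (median -0.40, against -0.42 for all genes). On the deposited scale the accessory subunits had 3 higher and 15 lower, and the core subunits none higher and 4 lower. Of the 11 subunits called higher at equal totals, Ndufa1 and Ndufa3 kept their call on the deposited scale and the others lost it. The remaining higher call on that scale was Ndufa4l2, which was above 0 in only 3 libraries, with at most 1 molecule in each.

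Ndufa1, a small membrane subunit encoded on the X chromosome and needed for assembly of complex I, had levels of 53.9, 49.8 and 58.2 in GC-PB, against 15.6, 11.7 and 13.1 in Fraction 1. It was at 11.4 to 18.8 in every library of Fraction 2, Fraction 3 and DZ, so the GC-PB libraries stood far above all 12 others. The log2 change against Fraction 1 was 1.93 ± 0.13 (SE; limma, adjusted p = 1.58e-10), or 3.82-fold. Xist was at 15.4 to 20.1 in GC-PB and 12.5 to 16.8 in Fraction 1.

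Ndufa3, an accessory subunit of the membrane arm, had levels of 41.9, 47 and 47.3 in GC-PB, against 18.1, 21.6 and 19.6 in Fraction 1. Its libraries in Fraction 2, Fraction 3 and DZ lay between 15.4 and 22.6, again with no overlap with GC-PB, and the log2 change was 1.16 ± 0.14 (limma, adjusted p = 5.38e-07). Ndufv3, a small subunit bound to the flavoprotein part, had levels of 13, 16.2 and 14.4 in GC-PB, against 8.21, 6.75 and 5.33 in Fraction 1. Ndufb9, in the part of the membrane arm far from the matrix arm, had 11.1, 17.9 and 16.4 in GC-PB, against 7.72, 6.9 and 8.07 in Fraction 1. The groups did not overlap for either gene.

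Ndufb11, like Ndufa1 on the X chromosome, had levels of 20.5, 24.7 and 23.1 in GC-PB, against 13, 13.1 and 10.7 in Fraction 1. Ndufa2, a matrix-side subunit, had 27.3, 27.2 and 27.7 in GC-PB, against 15.9, 14.6 and 14.4 in Fraction 1. Ndufs5 had 4.87, 6.73 and 9.65 in GC-PB, against 3.86, 3.9 and 2.83 in Fraction 1, but 8 of its 15 values were no whole multiple of the value of 1 molecule. Ndufa11 (0.67), Ndufa13 (0.65) and Ndufc1 (0.50) were also called higher at equal totals, but on the deposited scale Ndufa13 and Ndufc1 turned negative (-0.0191 and -0.15). Ndufc1 further lost its call without replicate 1 or 3 of Fraction 1 and without replicate 2 or 3 of GC-PB, where its change was 0.38 to 0.47. Of the genes above, the GENCODE model of Ndufb9 overlaps Gm49356 and that of Ndufa13 overlaps Yjefn3 on the same strand; Ndufa3, Ndufa2, Ndufb11, Ndufa11 and Ndufs3 overlap a coding gene on the other strand, and whether counting used strand is not given in the sources used here.

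Among the core subunits Ndufs3, which belongs to the arm that passes electrons to coenzyme Q, rose, and Ndufv2, an iron-sulfur protein, fell. Ndufs3 had levels of 13.3, 11 and 8.36 in GC-PB, against 6.57, 5.1 and 7.39 in Fraction 1. Ndufv2 had levels of 6.5, 6.05 and 4.61 in GC-PB, against 9.03, 7.35 and 8.76 in Fraction 1; its call was lost on the median ratio scale. The core subunits Ndufs1, Ndufs7, Ndufs8 and Ndufv1 had changes between -0.09 and 0.24, were not called and overlapped between the groups. Ndufs1 had levels of 3.57, 4.4 and 2.59 in GC-PB, against 2.79, 3.6 and 2.4 in Fraction 1. Ndufs8, which like Ndufs1 and Ndufs7 carries iron-sulfur clusters, had 8.77, 11 and 11.2 in GC-PB, against 7.71, 10.9 and 10.1 in Fraction 1. Ndufs7 lay at 6.05 to 8.07 in GC-PB and at 5.33 to 6.75 in Fraction 1, and Ndufv1, which binds NADH, at 3.17 to 6.32 in GC-PB and at 4.27 to 6.01 in Fraction 1.

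The accessory subunits that fell were Ndufc2, Ndufa10 and Ndufa7. Ndufc2, which takes part in building the membrane arm, had levels of 7.8, 5.77 and 5.76 in GC-PB, against 13.1, 11.7 and 11.7 in Fraction 1, with no overlap and a log2 change of -0.83 ± 0.17 (limma, adjusted p = 4.44e-04). The calls of Ndufa10 (-0.55) and Ndufa7 (-0.39) were lost on the median ratio scale.

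The assembly factors Ndufaf4 and Ndufaf6, which act in building complex I but are not part of it, fell. Ndufaf4 had levels of 1.62, 2.2 and 2.88 in GC-PB, against 6.89, 7.2 and 8.07 in Fraction 1. It was at 2.86, 3.22 and 3.36 in Fraction 2, at 1.41, 2.2 and 0.491 in Fraction 3 and at 0.894, 0.77 and 1.61 in DZ. Fraction 1 was thus above all 12 other libraries, and the log2 change of GC-PB against Fraction 1 was -1.39 ± 0.25 (limma, adjusted p = 1.48e-04). These levels rest on 2 to 48 molecules per library. Ndufaf6 had levels of 0.65, 0.275 and 0.288 in GC-PB, against 1.81, 1.95 and 1.72 in Fraction 1 (log2 change -1.02 ± 0.23), on 1 to 13 molecules per library.

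In complex II, which takes electrons from succinate in the TCA cycle, the membrane anchors went in opposite directions. Sdhc had levels of 5.2, 6.6 and 10.1 in GC-PB, against 3.78, 3 and 3.26 in Fraction 1 (log2 change 0.89 ± 0.23; limma, adjusted p = 0.0036). Sdhd, its partner anchor, had 4.22, 4.67 and 3.17 in GC-PB, against 7.06, 9.15 and 8.93 in Fraction 1 (log2 change -0.91 ± 0.19; limma, adjusted p = 6e-04). Neither gene overlapped between the groups. The flavoprotein Sdha and the iron-sulfur subunit Sdhb, which form the catalytic part, overlapped, with changes of -0.11 ± 0.20 and 0.05 ± 0.13. Sdha had levels of 6.5, 7.97 and 5.47 in GC-PB, against 6.57, 9 and 6.18 in Fraction 1, and Sdhb had 11.4, 15.1 and 12.7 in GC-PB, against 13.8, 11.6 and 12.2 in Fraction 1.

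In complex III 1 of 8 subunits rose and 3 fell (12.5% and 37.5%, against 14% and 22.7% of all tested genes). These counts depend on the scale. By median ratio 3 were higher and 1 lower (all genes 18.6% and 17.5%). On the deposited scale none were higher and 6 lower (all genes 11.2% and 45.8%). Uqcrq, a small subunit close to cytochrome b, had levels of 33.5, 39.3 and 41.5 in GC-PB, against 22.2, 19.9 and 23.2 in Fraction 1 (log2 change 0.78 ± 0.13; limma, adjusted p = 7.86e-05). Uqcr10, another small subunit, had levels of 10.7, 15.1 and 17.6 in GC-PB, against 24.8, 26.7 and 25.1 in Fraction 1 (log2 change -0.80 ± 0.16; limma, adjusted p = 3.77e-04). Both were without overlap. The large core proteins Uqcrc1 and Uqcrc2 fell by 0.72 and 0.60 on the log2 scale, calls that were lost on the median ratio scale, and Uqcrc1 overlapped between the groups. The Rieske iron-sulfur protein Uqcrfs1 had 12.3, 8.79 and 10.7 in GC-PB, against 8.54, 9.75 and 10.7 in Fraction 1, and its change of 0.12 ± 0.18 did not pass. Uqcrh, whose mean level over all 15 libraries was the highest in this complex, had 27.6, 26.4 and 27.4 in GC-PB, against 20.9, 23.8 and 22.5 in Fraction 1. At equal totals it was not called although the groups did not overlap. It was called higher on the median ratio scale and lower on the deposited scale.

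In complex IV, which passes electrons to oxygen, 3 of 14 subunits rose and 2 fell (21.4% and 14.3%, against 14% and 22.7% of all tested genes). By median ratio 5 were higher and none lower (all genes 18.6% and 17.5%). On the deposited scale none were higher and 9 lower (all genes 11.2% and 45.8%). Cox6a1 had levels of 42.9, 45.1 and 43.2 in GC-PB, against 30.4, 30.6 and 25.4 in Fraction 1. Cox7c had 43.2, 56.6 and 47.8 in GC-PB, against 36.4, 36 and 35 in Fraction 1, and Cox7a2 had 30.2, 44.8 and 36.9 in GC-PB, against 26.3, 24.1 and 28.3 in Fraction 1. No library of GC-PB overlapped one of Fraction 1 for these genes at equal totals, and on the deposited scale all 3 changes turned negative. Cox5a, which binds a regulatory thyroid hormone metabolite, had 13.6, 17.3 and 20.5 in GC-PB, against 24.5, 24.1 and 24.2 in Fraction 1. Cox5a and Cox6c (-0.36, with 1 GC-PB library inside the Fraction 1 range) lost their calls on the median ratio scale.

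In complex V 1 of 15 subunits rose and 3 fell (6.67% and 20%, against 14% and 22.7% of all tested genes). This balance depends on the scale. By median ratio 7 were higher and 2 lower (all genes 18.6% and 17.5%). On the deposited scale none were higher and 13 lower (all genes 11.2% and 45.8%). Those that fell at equal totals included 2 subunits of the catalytic head. Atp5b, the catalytic beta subunit, had levels of 37.7, 44.8 and 44.4 in GC-PB, against 64.8, 63.1 and 63.2 in Fraction 1 (log2 change -0.58 ± 0.10; limma, adjusted p = 4.71e-05). Atp5a1, the alpha subunit that alternates with beta in the head, had 20.5, 28.9 and 23.3 in GC-PB, against 41.7, 39.1 and 37.6 in Fraction 1 (log2 change -0.69 ± 0.12; limma, adjusted p = 6.1e-05). For both, every GC-PB library was below all 12 libraries of the other groups, which lay at 51.6 to 64.8 for Atp5b and 33.2 to 45.8 for Atp5a1. Atp5j2, a subunit of the membrane part, had levels of 26.6, 33.8 and 29.7 in GC-PB, against 15.1, 21.6 and 17.9 in Fraction 1 (log2 change 0.70 ± 0.14; limma, adjusted p = 4.04e-04). The gamma shaft Atp5c1 (-0.28 ± 0.13) and the delta subunit Atp5d (-0.17 ± 0.14) did not pass. Atp5g2 was the third to fall, with 23.7, 32.4 and 28.8 in GC-PB, against 36, 37.5 and 39 in Fraction 1, and its call was lost on the median ratio scale. Of the genes that are no subunits, Atp5s was at 0 in all 3 GC-PB libraries, against 0.328 to 0.45 in Fraction 1, and Atp5sl at 0.288 to 0.825 in GC-PB, against 1.2 to 2.23 in Fraction 1. Both were called lower, and Atp5s lost its call when any 1 of the 6 libraries was left out.

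**Figure D3:**
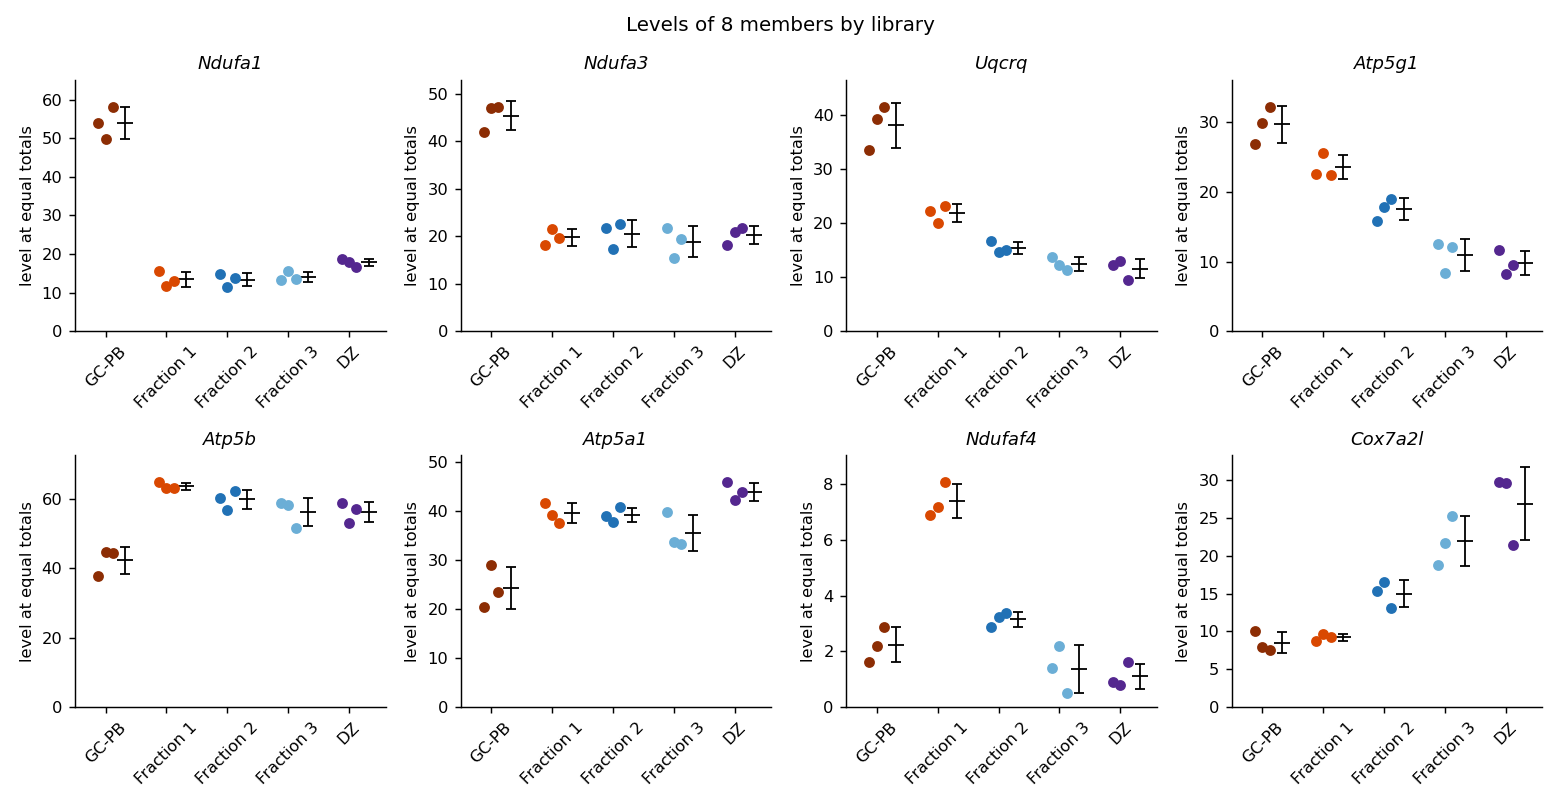
Level at equal totals of 8 members in each of 3 libraries per group, with mean and SD; each axis starts at 0. Ndufa1 and Ndufa3 are raised in GC-PB alone, Atp5b and Atp5a1 are lowest there, Ndufaf4 peaks in Fraction 1, and Uqcrq, Atp5g1 and Cox7a2l step through the groups.

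Among the germinal centre groups few members passed. Fraction 1 against Fraction 2 gave 2 higher and 1 lower (all genes 3.4% and 5.18%). An unadjusted p under 0.05 (limma) was reached by 12 of 90 members and by 2347 of all 11190 tested genes. The median change was 0.00 for the members and -0.05 for all genes. Ndufaf4 rose by 1.02 ± 0.25 (limma, adjusted p = 0.0149) and Uqcrq by 0.47 ± 0.13 (limma, adjusted p = 0.0311), and Cox7a2l changed by -0.65 ± 0.15 (limma, adjusted p = 0.0106). Cox7a2l had levels of 8.7, 9.6 and 9.28 in Fraction 1, against 15.3, 16.6 and 13.1 in Fraction 2. Uqcrq had 22.2, 19.9 and 23.2 in Fraction 1, against 16.6, 14.6 and 15 in Fraction 2. None of these 3 genes overlapped between the groups. Leaving out 1 library moved the higher count to between 0 and 2 and the lower count to between 0 and 1: no higher call was left once replicate 3 of Fraction 1 or replicate 2 of Fraction 2 was dropped, and 1 when the dropped library was replicate 1 of Fraction 1 or replicate 1 or 3 of Fraction 2. The lower call was lost with replicate 1 of Fraction 1 or replicate 2 of Fraction 2 dropped. On the median ratio scale 4 were higher and 1 lower (all genes 4.66% and 3.5%). On the deposited scale 84 were higher and none lower (all genes 54.7% and 0.563%); the value of 1 molecule was larger in Fraction 1, as given above. Cox7a2l then had a change of 0.71.

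Fraction 2 against DZ gave 2 higher and 2 lower members (all genes 1.58% and 1.71%), and on the deposited scale 6 and 0 (all genes 3.03% and 0.42%). The median change was 0.00 for the members and 0.01 for all genes. Atp5g1 had levels of 15.8, 17.9 and 18.9 in Fraction 2, against 11.6, 8.28 and 9.49 in DZ (log2 change 0.79 ± 0.15; limma, adjusted p = 0.00385). Ndufaf4 rose by 1.01 ± 0.25 (limma, adjusted p = 0.0291). Cox7a2l had 15.3, 16.6 and 13.1 in Fraction 2, against 29.7, 29.7 and 21.4 in DZ (log2 change -0.79 ± 0.15; limma, adjusted p = 0.00423). Sdhb had levels of 12.9, 13.8 and 12.1 in Fraction 2, against 19.7, 16.4 and 19.6 in DZ (log2 change -0.48 ± 0.13; limma, adjusted p = 0.0474). Atp5g1 kept its call without each library in turn and Cox7a2l did too; Sdhb lost its call without each of the 6, and Ndufaf4 without DZ replicate 1 or 2 or any Fraction 2 replicate.

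No member passed in Fraction 2 against Fraction 3 (limma, with all genes 0.357% higher and 0.223% lower). There 18 of 90 members had an unadjusted p under 0.05, against 1235 of all 11190 tested genes. The changes leaned upward, positive for 68 of 90 with a median of 0.13, against 0.00 for all genes. The nearest to the threshold were Ndufb6, an accessory subunit of complex I, at 0.75 ± 0.18, and Atp5g1 at 0.65 ± 0.15 (limma, adjusted p = 0.0512 for each). Ndufb6 had levels of 7.56, 7.88 and 7.02 in Fraction 2, against 3.43, 3.18 and 5.9 in Fraction 3. At equal totals 1 member was called higher without Fraction 3 replicate 3. On the deposited scale 14 members were called higher and none lower (all genes 2.67% and 0.0179%). In Fraction 3 against DZ, again no member passed (limma, with all genes 0.465% and 0.411%). An unadjusted p under 0.05 was found for 13 of 90 members, against 1112 of all 11190 tested genes. Here 69 of 90 changes were negative, with a median of -0.10 against 0.00 for all genes. These comparisons share Fraction 3, whose libraries had the lowest summed share.

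The group means of a few members were ordered through all 5 groups. The order crosses from Fraction 2 to Fraction 1, a step that cannot be told apart from a difference of donors or preparation. The step from Fraction 1 to GC-PB also holds a difference in genotype and tamoxifen. Group means fell in the order GC-PB, Fraction 1, Fraction 2, Fraction 3, DZ for 5 of 90 members (5.56%, against 1.43% of all tested genes) and rose in that order for 4 (4.44%, against 4.6%). Atp5g1 averaged 29.7 ± 2.66 in GC-PB, 23.6 ± 1.77 in Fraction 1, 17.5 ± 1.6 in Fraction 2, 11 ± 2.3 in Fraction 3 and 9.79 ± 1.69 in DZ (SD, n = 3 each), and only Fraction 3 and DZ overlapped as neighbours. Uqcrq averaged 38.1 ± 4.15 in GC-PB, 21.8 ± 1.66 in Fraction 1, 15.4 ± 1.07 in Fraction 2, 12.4 ± 1.23 in Fraction 3 and 11.6 ± 1.82 in DZ, with the same overlap. Cox7a2l averaged 8.51 ± 1.37 in GC-PB, 9.19 ± 0.455 in Fraction 1, 15 ± 1.74 in Fraction 2, 21.9 ± 3.27 in Fraction 3 and 26.9 ± 4.79 in DZ. For Cox7a2l, GC-PB overlapped Fraction 1, and Fraction 3 overlapped DZ. At equal totals no step between neighbouring groups was called for Atp5g1 (limma, adjusted p of 0.0512 or more). For Cox7a2l only Fraction 1 against Fraction 2 was called, and for Uqcrq that step and GC-PB against Fraction 1. The other ordered members were Ndufc1, Ndufs3 and Ndufs7, falling toward DZ, and Cox6b1, Cox6c and Sdhaf2, rising toward it.

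Genes that encode forms of the same subunit shifted against each other, and such shares within a library do not depend on the scale. Atp5g1, Atp5g2 and Atp5g3 encode the same mature c subunit, which forms the rotating ring of complex V, with different import sequences. Atp5g1 made up 30.8 ± 1.49% of the 3 in GC-PB, 24.6 ± 1.16% in Fraction 1, 19.7 ± 1.62% in Fraction 2, 14.2 ± 2.72% in Fraction 3 and 12.5 ± 1.86% in DZ. Atp5g2 made up 29.2 ± 2% in GC-PB and 39.1 ± 2.38% in Fraction 1, and 40.1 to 49.8% in all libraries of Fraction 2, Fraction 3 and DZ. Atp5g3 lay between 34.1 and 46.2% in every library. Their summed level was 84.5 to 103 in GC-PB, 93.3 to 99.1 in Fraction 1, 86.6 to 91.9 in Fraction 2, 75 to 79.8 in Fraction 3 and 73.8 to 81.9 in DZ. These genes have processed pseudogene copies, and how reads that fit several places were counted is not given in the sources used here.

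Cox7a2l, also called SCAF1, resembles the complex IV subunit Cox7a2 and is described as tying complex III to complex IV in supercomplexes. Whether it does so in the mice used here was not tested. Of the summed level of Cox7a2, Cox7a2l and Cox7a1, Cox7a2l made up 18.9 ± 5.16% in GC-PB, 25.8 ± 2.05% in Fraction 1, 36.2 ± 4.36% in Fraction 2, 50.2 ± 5.87% in Fraction 3 and 49.2 ± 6.09% in DZ. Cox7a1, the form of heart and skeletal muscle, was at 0.808 or less in every library. The other tissue-specific forms were low too: Cox6b2, the testis form, reached 0.404, Cox7b2 0.223, Ndufa4l2 0.325, Cox4i2 0.325 and Cox6a2 0.288, while Cox8b and Cox8c were at 0 in all 15 libraries. Among the general counterparts, Cox4i1 lay at 21.8 to 37.2, Cox6b1 at 26.2 to 42.2 and Cox8a at 30.7 to 44.8. Cox4i1, Cox6b1 and Cox8a had no call in any comparison at equal totals. Cox6a1 (0.59) and Cox7a2 (0.48), the counterparts of Cox6a2 and Cox7a1, were called higher in GC-PB than in Fraction 1 at equal totals. On other scales Cox8a was called higher in GC-PB than in Fraction 1 (median ratio), and Cox4i1 and Cox6b1 were called in Fraction 1 against Fraction 2 and in GC-PB against Fraction 1 (deposited scale).

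Within a complex the mean levels over 15 libraries spread widely, without correction for gene length. They ran in complex I from 0.0549 (Ndufa4l2) to 25 (Ndufa3), in complex II from 4.61 (Sdhc) to 14.6 (Sdhb), in complex III from 9.03 (Uqcrfs1) to 26.7 (Uqcrh), in complex IV from 0.0253 (Cox7b2) to 37.8 (Cox8a) and in complex V from 13.8 (Atp5f1) to 55.7 (Atp5b).

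Other nuclear genes of the mitochondrion are given by list (plot of calls by list), beside the 14% higher and 22.7% lower of all tested genes in GC-PB against Fraction 1. None of these lists was tested as a set. In the TCA cycle, none of 13 genes rose and 6 fell in GC-PB against Fraction 1, among them Idh3a (-1.57 ± 0.20) and Fh1 (-1.42 ± 0.25), with a median of -0.56 on the log2 scale. Of 24 import genes 2 rose and 15 fell (median -0.96), among them the outer membrane receptor Tomm20, at 9.14 in GC-PB and 30.8 in Fraction 1 on average. Of 16 genes of mitochondrial transcription and biogenesis none rose and 10 fell (median -0.62), with Myc at 2.02 in GC-PB and 17.0 in Fraction 1. Of 10 antioxidant and uncoupling genes none rose and 7 fell (median -0.94). Near the share of all genes were complex III and IV assembly, with 3 higher and 5 lower of 26 (11.5% and 19.2%, median 0.01), and electron carriers and coenzyme Q synthesis, with 3 higher and 5 lower of 20 (15% and 25%, median -0.31), the complex III subunit Cyc1 being lower by 1.02 in GC-PB.

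The list of complex V assembly, inhibitor and carrier genes gave 1 higher and 4 lower of 9 (median -0.43). The phosphate carrier Slc25a3 averaged 15.2 in GC-PB and 33 in Fraction 1, and the ADP/ATP carriers Slc25a4 and Slc25a5 fell by 1.84 and 1.03 on the log2 scale. Atpif1, the inhibitor of complex V, averaged 9.57 in GC-PB and 4.17 in Fraction 1 (log2 change 1.04 ± 0.18; limma, adjusted p = 8.16e-05). On the median ratio scale the TCA cycle had 1 higher and 4 lower, import 3 and 12, and transcription and biogenesis none and 6. Antioxidant and uncoupling genes had 2 higher and 7 lower there, and the complex V list 1 and 3. Of all tested genes 18.6% were higher and 17.5% lower on that scale. On that scale complex III and IV assembly had 6 higher and 3 lower, and electron carriers and coenzyme Q synthesis 4 of each.

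In Fraction 1 against Fraction 2, 3.4% of all tested genes were called higher and 5.18% lower, with a median change of -0.05. The import list had 10 of 24 higher (41.7%) and none lower, with a median of 0.54. Transcription and biogenesis had 3 of 16 higher (18.8%), Myc, Pprc1 and Peo1. The 79 subunits had 1 higher and 1 lower (1.27% each). Cytochrome c (Cycs), which carries electrons between complexes III and IV, averaged 33.5 in GC-PB, 37.7 in Fraction 1, 22.5 in Fraction 2, 18 in Fraction 3 and 13.3 in DZ. It rose in Fraction 1 against Fraction 2 (0.71 ± 0.12; limma, adjusted p = 6.61e-04) and in Fraction 2 against DZ (0.72 ± 0.12; limma, adjusted p = 9.86e-04). Ndufaf4 and Cycs were thus both above their Fraction 2 level in Fraction 1, in the comparison that cannot be told apart from donors or preparation.

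**Figure D4:**
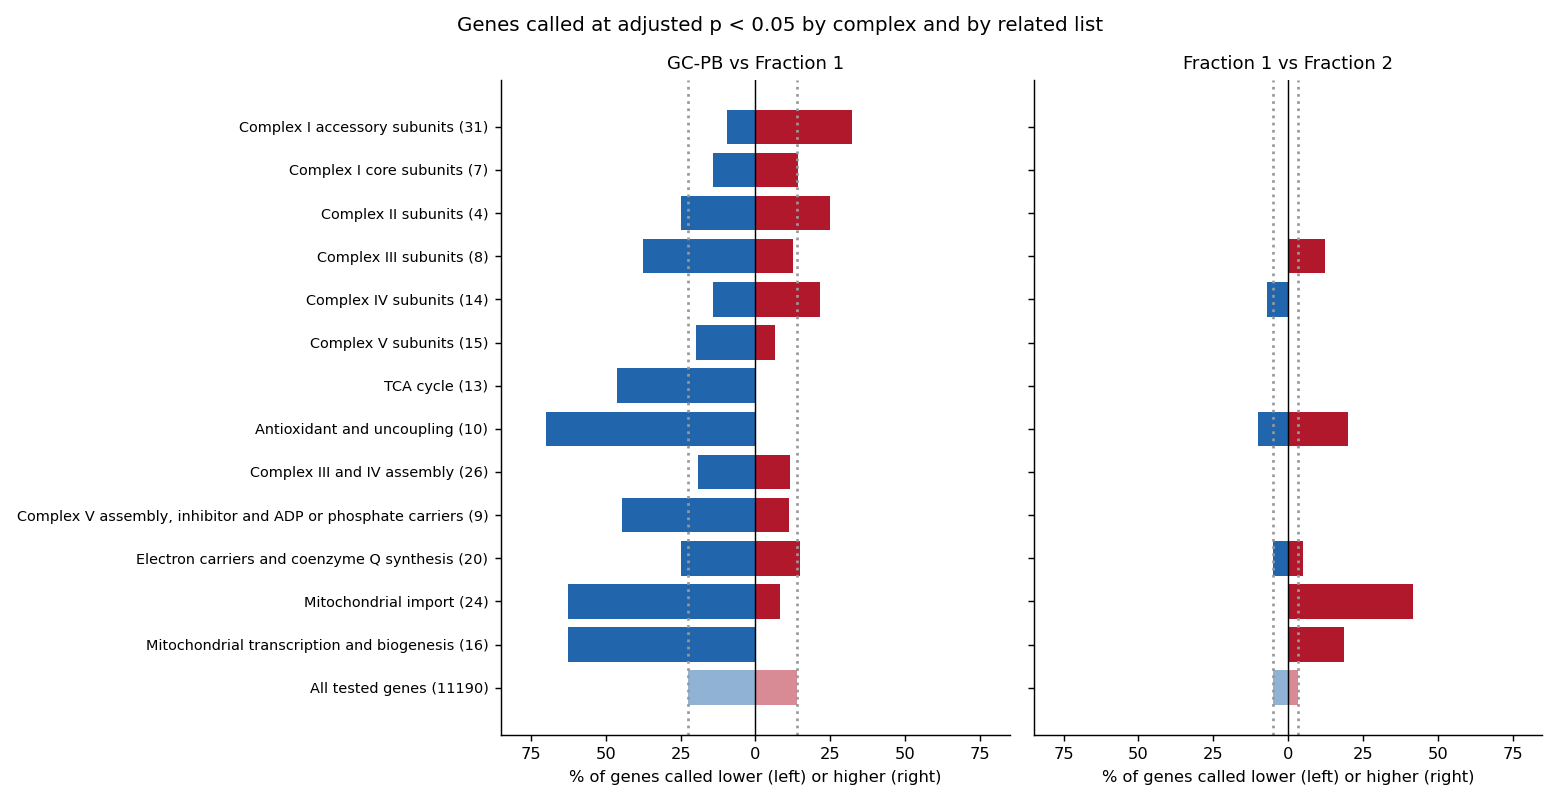
Percent of the tested genes of each complex and related list (number in parentheses) called higher (right) or lower (left) in GC-PB against Fraction 1 and in Fraction 1 against Fraction 2; dotted lines mark the percent of all 11190 tested genes. At equal totals complex I accessory subunits reach furthest to the higher side in GC-PB, 10 of 31, while import, transcription and biogenesis, antioxidant and TCA genes lie mainly on the lower side.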

How the data were processed

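RNA-seq libraries of 100 sorted mouse cells carried a molecular barcode on the reverse transcription primer, and every tube received an equal quantity of ERCC spike-ins, per the labels' protocols. Alignment used TopHat2 and mm10, per the submitters' processing notes; counting, annotation and scaling are not given in the sources used here. The deposited signal per gene is mostly a whole multiple of 1 constant per library, but not throughout, so no count model was used. For this report every library was brought to the same total (53844.9, Rn45s left out), and limma 3.58.1 (R 4.3.3, trend, prior degrees of freedom 10.68) was fitted to log2(level + 1) over 5 group means and all 15 libraries. The 11190 genes above 0 in at least 3 libraries were tested, with Benjamini-Hochberg adjusted p under 0.05 as the call. Fold changes on this scale understate changes of low genes. The script was tested on simulated data.

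Members, gene lists and tests were chosen with earlier results of these data known. Per-library values are given for called members without overlap (up to 8 per direction), subunits of highest and lowest level, isoform groups, complex I core and complex II subunits (an item withheld from this text is not reported here); from other lists up to 3 called genes of smallest p are named. Atpif1 and Ndufb6 fall outside that rule and were chosen after their values were seen. For members printed as called without overlap, the lack of overlap was a condition of the choice and is no separate result. Genes were placed with GENCODE vM21 (89 of 90 members), and promoters came from RefSeq. Alternatives were other scales, pseudocounts, filters, a replicate block and leaving out libraries. Figures used Python 3.11.15 and matplotlib 3.10.9.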

Additional observations from a re-analysis of the deposited data

How the results depend on the processing

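Of 41 calls of single members, 33 stayed on the median ratio scale (8 lost), 23 on the deposited scale (12 lost, 6 reversed), 26 in fits of only the 6 libraries compared (15 lost), and 36 to 41 under the other settings that use all libraries. The cause of these changes was not tested. Leaving Igj out of the total, and the median of the totals, were chosen after seeing the data. In GC-PB against Fraction 1 the counts were 35 higher and 9 lower by median ratio, 3 and 59 on the deposited scale, and 8 lower with only the 6 libraries. Reversed on the deposited scale were Cox6a1 (-0.0887), Ndufa13 (-0.0191), Cox7c (-0.24), Cox7a2 (-0.20) and Ndufc1 (-0.15) there, and Cox7a2l in Fraction 1 against Fraction 2 (0.71). In Fraction 1 against Fraction 2 the higher count was 84 on the deposited scale, 4 by median ratio, 1 with a pseudocount of 0.1 and 6 with only 6 libraries; the lower count was 0 on the deposited scale and 2 with only 6 libraries. In Fraction 2 against DZ the higher count was 6 on the deposited scale and 1 with a pseudocount of 0.1 or only 6 libraries; the lower count was 0 on the deposited scale or with only 6 libraries, and 1 with Rn45s kept, a pseudocount of 0.5 or 0.1, or the replicate block. In Fraction 2 against Fraction 3 the higher count was 14 on the deposited scale and 2 with Rn45s kept, genes above 0 in at least 10 libraries, or the median of the totals.

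Leaving out 1 library gave 16 to 21 higher and 9 to 18 lower in GC-PB against Fraction 1, 0 to 2 and 0 to 1 in Fraction 1 against Fraction 2, 1 to 3 and 1 in Fraction 2 against DZ, 0 to 1 and 0 in Fraction 2 against Fraction 3, and 0 in Fraction 3 against DZ. Samples with the same replicate number shared only the number (correlations of deviations -0.0272 to 0.0296); the replicate block kept 39 of 41 calls, with 17 higher and 16 lower in GC-PB against Fraction 1. All-gene medians on the deposited scale were 0.64 in Fraction 1 against Fraction 2 and -0.42 in GC-PB against Fraction 1. Members with few molecules, such as Ndufaf6 (1 to 13 per library), are the least precise.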

Other observations

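The change of the subunits in GC-PB against Fraction 1 was also set beside transcript length. Length was taken from the longest protein-coding transcript of each gene in GENCODE, which need not be the form present in these cells. Of 35 subunits with an mRNA under 800 nucleotides 8 were higher and 6 lower in GC-PB, with a median change of 0.14 on the log2 scale, and of 44 longer ones 9 were higher and 7 lower, with a median of -0.03. Among all tested genes with a length, 62 of 294 in the shorter class were higher and 73 lower, with a median of 0.00. In the longer class 1374 of 9729 were higher and 2288 lower, with a median of -0.09. Spearman's rho between length and change was -0.23 across the 79 subunits and 0.03 across 10023 genes; the points share their libraries, and genes are not independent replicates.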
